A study of Homo sapiens with 12 samples.

Results

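Genes for the protein parts of the ribosome and for the factors that start translation were followed in maps of N6-methyladenosine (m6A), the most common internal modification of messenger RNA. The members were the genes whose symbol starts with EIF, MRPL or MRPS, or with RPL or RPS followed by a digit (RPS6K kinases left out), and that carried an m6A peak in at least 1 library. There were 95 such genes among the 10536 genes with a peak. They comprised 25 with an EIF symbol, 48 with a symbol of mitochondrial ribosomal proteins and 22 with a symbol of cytosolic ribosomal proteins. The rule works on symbols, so it also took in 10 transcribed pseudogenes and 4 long noncoding RNAs, and 81 members code for protein.

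The cells were 143B, an established human osteosarcoma line. They were transfected with siRNAs against ALKBH5, a demethylase of m6A, or with scrambled siRNA, and harvested at 48 h. By MeRIP-seq, RNA fragments that an anti-m6A antibody captures are sequenced. The immunoprecipitated libraries, 3 from knockdown cells and 3 from scrambled controls, have 1 peak list each. Per the labels' protocol, polyadenylated RNA was the input material of replicates 1 and 3, total RNA that of replicate 2 (Magna MeRIP kit), and each replicate number had its own antibody. A separate label, however, lists the replicate 1 antibody for every library. Nothing in the labels says whether the replicates were separate cultures, so p-values measure only the spread between these samples.

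Translation starts when initiation factors bring the small ribosomal subunit, the initiator tRNA and the capped mRNA together. eIF4F binds the cap, eIF3 holds the small subunit, eIF2 delivers the initiator tRNA, and eIF2B recharges eIF2 with GTP. Stress kinases that phosphorylate eIF2 slow this step. Cytosolic ribosomal proteins come from short, abundant mRNAs, many with an oligopyrimidine tract at the start that ties them to mTOR signalling. Mitochondrial ribosomal proteins are also encoded in the nucleus, are imported, and build the ribosome that makes proteins of the respiratory chain. m6A in mRNA is known to concentrate near stop codons and in long exons.

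The knockdown lists held 17563, 5917 and 18360 peaks in replicates 1, 2 and 3, and the scrambled lists 15139, 5677 and 18724. Read counts are not part of the lists, and depth is therefore unknown. A gene counts as called in a list that holds at least 1 peak with its number. A gene without a peak may have had little RNA, little m6A, or a place outside the gene models used, and the lists cannot tell these apart. ALKBH5 itself had no peak in any knockdown library, and peaks of 210 and 150 nt in scrambled replicates 1 and 3. Among bone and mesenchymal markers, RUNX2, COL1A1, CDH11 and TWIST1 carried a peak and SPARC, COL1A2 and VIM did not, while none of 6 markers of other cell types did. Peak calls are not RNA levels.

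Over the 6 libraries together, peaks were sparse on cytosolic ribosomal protein genes, and on mitochondrial ones about as frequent as on protein-coding genes in general. Of the RefSeq protein-coding genes with such symbols and no hyphen, 43 of 77 mitochondrial ribosomal protein genes had a peak in some library (55.8%, 95% Wilson interval 44.7 to 66.4%). The same held for 24 of 56 initiation factor genes (42.9%, 30.8 to 55.9%) and for 12 of 84 cytosolic ribosomal protein genes (14.3%, 8.37 to 23.3%). Over all protein-coding genes the share was 48.9% (9679 of 19791). By library, the mitochondrial share was 40.3%, 20.8% and 44.2% in the knockdown and 19.5%, 19.5% and 53.2% in the scrambled libraries. All protein-coding genes gave 38.9%, 16.5% and 42.6%, and 33.1%, 16.1% and 43.1%. The mitochondrial share was thus the lower in scrambled replicate 1 only. The cytosolic share was lower in every library, at 9.52%, 2.38% and 9.52% in the knockdown and 5.95%, 2.38% and 10.7% in the scrambled ones. The intervals cover counting error only, and no test was run between the classes. By symbol, 19 of 28 MRPS genes and 24 of 49 MRPL genes had a peak, as did 9 of 50 RPL genes and 3 of 34 RPS genes (RPS24, RPS29 and RPS19BP1). Symbols do not always name the subunit: MRPS18A and MRPS30 belong to the large mitochondrial subunit, and RPS19BP1 is no part of the ribosome.

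The classes stood in another order by median genomic length than by share with a peak. The median genomic length was 5092 bp for cytosolic ribosomal protein genes, 8618 bp for mitochondrial ones, 22588 bp for initiation factor genes and 24282 bp for all protein-coding genes. Among genes under 5 kb, 16 of 22 mitochondrial ribosomal protein genes had a peak (72.7%, 51.8 to 86.8%) and 3 of 38 cytosolic ones did (7.89%, 2.72 to 20.8%). Over all protein-coding genes under 5 kb, 26% had a peak (802 of 3085). None of the 5 initiation factor genes under 5 kb had one. From 5 to 10 kb the mitochondrial, cytosolic and all-gene shares were 57.9%, 16.1% and 39.9%, and from 10 to 20 kb 61.1%, 20% and 45.1%. From 20 to 50 kb they were 18.2% (2 of 11), 40% (2 of 5) and 54.1%. At 50 kb and over, 3 of 7 mitochondrial ribosomal protein genes had a peak (42.9%), against 61.9% of all genes. The mitochondrial share was thus above that of all genes only below 20 kb. Genomic length counts introns and is not the length of the mRNA.

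**Figure D1:**
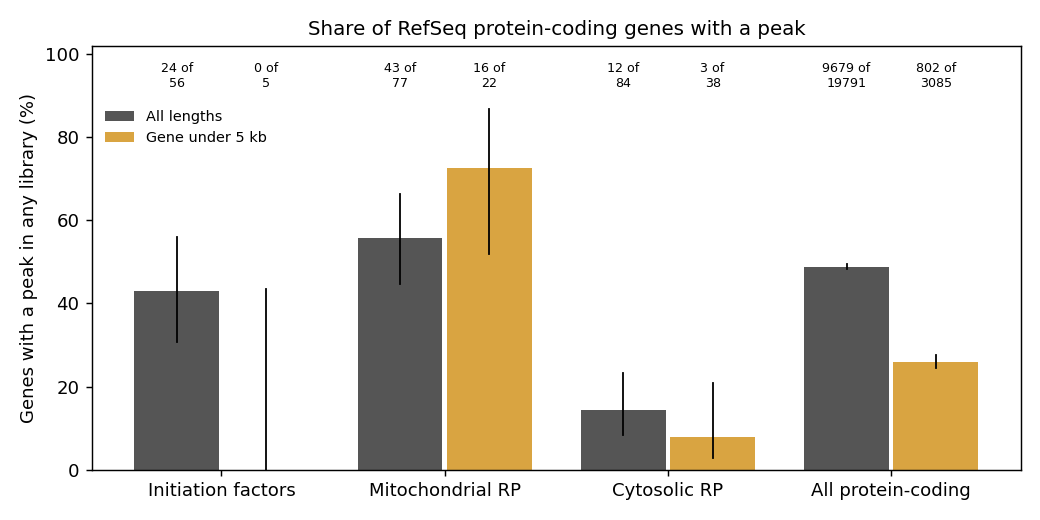
Share of RefSeq protein-coding genes with a peak in any of the 6 libraries, in percent, for each class and for all protein-coding genes; grey bars take all genes, yellow bars genes under 5 kb, lines are 95% Wilson intervals and the numbers above are genes with a peak of all genes. Mitochondrial ribosomal protein genes stand at 55.8% and 72.7%, cytosolic ones at 14.3% and 7.89%.

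Members that were called carried few peaks. Over the 316 calls of a member in a library, 73.1% rested on 1 peak, against 54.3% over all genes. The share was 77.4% for mitochondrial and 77% for cytosolic ribosomal protein genes and 62.1% for initiation factor genes. The most peaks of a member in a library was 6, on EIF3A, against 21 over all genes. The median best-peak percentile within a list (100 is the best score) was 51.8, 51.7 and 51.6 for members after knockdown, against 45.1, 56.9 and 48.4 with scrambled siRNA. Over all genes it was 66.2, 59.6 and 65 after knockdown and 66.2, 60 and 65 with scrambled siRNA, higher than for members in every list. A gene with more peaks has more from which the best is taken. Over single peaks the median percentile of members was lower than that of all genes in every list but scrambled replicate 2 (52.5 against 50). Peaks of members that crossed a splice junction made up 15% of 434, against 13.8% over all peaks with a gene number. By class that share was 24.5% for initiation factors, 12% for mitochondrial and 6.33% for cytosolic ribosomal protein genes.

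Of the 95 members, 15 were called in all 6 libraries (15.8%), where 23.3% of all genes were. Another 18 were called in a single library (18.9%, against 12.9% of all genes), and for 14 of these it was scrambled replicate 3, the longest list. Over all genes that library held a smaller share, 574 of the 1358 genes called in a single library. Knockdown replicate 3, whose list was nearly as long, held 0 of the 18 members and 357 of the 1358 genes. The 14 members are also among those called in fewer knockdown than scrambled libraries, given below. The 15 were MRPL20-AS1, MRPL12, MRPL16, MRPL27, MRPS2, MRPS12, MRPS18A, MRPS26 and MRPS27 of the mitochondrial class, EIF5B, EIF3A, EIF4G3 and EIF2AK3 of the initiation factors, and RPL28 and RPL36A-HNRNPH2 of the cytosolic class. Each had a region, formed by peaks that overlapped on the same strand, that all 6 libraries called. Members had 142 regions, of which 15 were called in all 6 libraries, and over all regions 12.7% were.

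Among the initiation factors, 3 of the 4 stress kinases of eIF2 were called, with 28 peaks over the libraries. EIF2AK3 (PERK), the kinase of stress in the endoplasmic reticulum, was called in every library. Its peaks covered 783, 212 and 691 nt of exon in knockdown replicates 1, 2 and 3, against 332, 242 and 841 nt in the scrambled ones. The values of the groups overlapped, with the knockdown higher in replicate 1 only. The shared region lay at chromosome 2, 88861897 to 88874844 (hg19, minus strand, 841 nt of exon). EIF2AK4 (GCN2), which senses uncharged tRNA, had 302, 121 and 841 nt after knockdown, against 151, 0 and 1110 nt with scrambled siRNA. EIF2AK1 (HRI), the heme-regulated kinase, had 1018, 0 and 1406 nt in knockdown and 538, 0 and 1405 nt in scrambled libraries, and was called in neither library of replicate 2. AIMP2, on the opposite strand, had peaks over the EIF2AK1 peaks in 3 libraries. EIF2AK2 (PKR), which binds double-stranded RNA, had no peak.

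Of 12 genes with EIF4A, EIF4B, EIF4E, EIF4G or EIF4H symbols, 6 had a peak (EIF4G1, EIF4G3, EIF4E2, EIF4E3, EIF4B and EIF4H). EIF4G3, a scaffold of eIF4F, was called in all libraries, with 390, 361 and 689 nt in the knockdown and 240, 270 and 929 nt in the scrambled ones. EIF4G1, the main scaffold, had 959, 331 and 1019 nt in knockdown libraries and 0, 91 and 1019 nt in scrambled ones. Its knockdown values were thus higher in replicates 1 and 2 and equal in replicate 3 (difference of means 399.7 nt, p = 0.4 by a two-sided exact permutation test over 3 and 3 libraries). The EIF4G1 peaks lay in regions at chromosome 3, 184039260 to 184039888 and 184052518 to 184052937 on the plus strand, the first called in 3 knockdown libraries and 1 scrambled library and the second in 3 and 2. EIF4E2 (4EHP), a cap-binding protein that represses translation, was called in 3 knockdown libraries (211, 121 and 390 nt) and 1 scrambled library (0, 0 and 421 nt). EIF4B and EIF4H, helpers of the eIF4A helicase, were each called in 1 scrambled library. EIF4E3, a relative of EIF4E, was called in 1 knockdown library (0, 0 and 150 nt) and 2 scrambled libraries (150, 0 and 121 nt). EIF4A1, EIF4A2 and EIF4E, the helicases and the cap-binding subunit of eIF4F, had no peak, and neither had EIF4G2, a relative of the scaffolds.

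Of the other factors, EIF5B, the GTPase that joins the subunits, carried 19 peaks, the most of any member. EIF5B had 1711, 241 and 964 nt in knockdown libraries and 1203, 723 and 1171 nt in scrambled ones, lower in the knockdown in replicates 2 and 3. EIF3A, the largest eIF3 subunit, had 1205, 91 and 872 nt in the knockdown and 272, 211 and 1141 nt in the scrambled libraries. Only 4 of 14 eIF3 protein-coding genes had a peak (EIF3A, EIF3B, EIF3I and EIF3J). For eIF2B, 3 of 5 subunits did. EIF2B1 had 329, 0 and 479 nt in the knockdown and 90, 240 and 509 nt in the scrambled libraries. EIF2B2 was called in replicate 3 alone, at 120 nt in knockdown and 208 nt in scrambled.

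EIF2B5, the catalytic subunit of eIF2B, was 1 of the 2 members called in every knockdown library and no scrambled library. Its peaks covered 150, 60 and 150 nt in the knockdown replicates and nothing in the scrambled ones. They did not mark a common site. Those of knockdown replicates 1 and 2 lay at chromosome 3, 183862771 to 183862920, and that of replicate 3 at 183852899 to 183853048, both on the plus strand. The peaks ranked low in their lists, with best percentiles of 33.6, 12.7 and 5.69. The other such member was MRPL4, a protein of the large mitochondrial subunit. It had 149, 179 and 120 nt in the knockdown and none in the scrambled libraries, over regions at chromosome 19, 10369107 to 10369371 (replicates 1 and 2) and 10370350 to 10370469 (replicate 3) on the plus strand, with best percentiles of 31.3, 58.6 and 2.84. Over all genes 0.114% met this rule (12 of 10536). No member met the reverse rule, which 0.0285% of all genes did.

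Mitochondrial ribosomal protein genes made up 48 of the 95 members and 216 of the 434 peaks. MRPL27 and MRPS26, proteins of the large and the small subunit, kept the best ranks across the lists among protein-coding members called in every library, with lowest percentiles of 60 and 49.5. MRPS26 peaks covered 772, 239 and 566 nt in the knockdown and 505, 149 and 297 nt in the scrambled libraries, all within chromosome 20, 3026764 to 3028748, plus strand. MRPL27 had 328, 209 and 387 nt in the knockdown and 268, 149 and 328 nt in the scrambled libraries, at chromosome 17, 48445228 to 48445614 on the minus strand. In both genes every knockdown value was above that of its same-numbered control, but the groups overlapped, with replicate 2 low in each. For MRPL27, knockdown replicate 1 and scrambled replicate 3 were also equal, at 328 nt. MRPS2, of the small subunit, had 448, 209 and 952 nt in knockdown and 150, 179 and 923 nt in scrambled libraries. MRPS18A, of the large subunit despite its symbol, had 449, 151 and 390 nt in knockdown and 150, 61 and 300 nt in scrambled libraries (difference of means 159.7 nt, p = 0.2 by the same exact permutation test). Its region lay at chromosome 6, 43639024 to 43639502, minus strand.

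MRPS25 of the small subunit and MRPL57, a small protein of the large subunit, carried the most peaks among the protein-coding mitochondrial members. MRPL57 had 361, 60 and 1405 nt in knockdown and 241, 0 and 1048 nt in scrambled libraries. MRPS25 had 777, 61 and 958 nt in knockdown and 360, 0 and 777 nt in scrambled libraries. In both the knockdown was higher in each pair, by 60 or 61 nt in replicate 2. MRPL20-AS1, a long noncoding RNA next to MRPL20, had the longest coverage of the class, with 1601, 417 and 1453 nt in knockdown and 862, 416 and 1187 nt in scrambled libraries. Its peaks and those of MRPL20 overlapped on opposite strands in 4 libraries. The 7 mitochondrial members called in a single library were 6 in scrambled replicate 3 and MRPS18B in knockdown replicate 1. Some peaks of MRPL12, MRPL42P5, MRPS16, MRPS24 and MRPS28 shared bases with peaks numbered as SLC25A10, CCDC32, DNAJC9, URGCP-MRPS24 and TPD52, in that order.

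The cytosolic class held 22 members, of which 14 code for protein, and these include RPS19BP1, a nucleolar partner of RPS19, and the readthrough genes RPL36A-HNRNPH2 and RPL17-C18orf32. RPL28, a protein of the large subunit, was the most heavily called, with 13 peaks. It had 542, 151 and 991 nt in knockdown and 151, 302 and 661 nt in scrambled libraries, higher in the knockdown in replicates 1 and 3 and lower in replicate 2. The region called in every library lay at chromosome 19, 55898748 to 55899317, plus strand. RPS29, of the small subunit, had 417, 60 and 596 nt in knockdown and 179, 0 and 626 nt in scrambled libraries, all within chromosome 14, 50043866 to 50044550, minus strand. RPL27A had 270, 0 and 869 nt in knockdown and 91, 0 and 930 nt in scrambled libraries. RPS24 had 480, 0 and 628 nt in knockdown and 0, 0 and 212 nt in scrambled libraries, higher in the knockdown of both polyadenylated pairs (exact permutation test, p = 0.4). RPL13 had 150, 0 and 360 nt in knockdown and 0, 0 and 360 nt in scrambled libraries.

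Several cytosolic members rested on weak or shared evidence. RPL3 and RPL4 were called in knockdown replicate 1 alone, at 180 and 91 nt, and RPL13A in scrambled replicate 3 alone, at 60 nt. Peaks of RPL36A-HNRNPH2 shared bases with peaks numbered as HNRNPH2, so its calls cannot be told apart from that gene. The same held for RPL17-C18orf32 and C18orf32. RPL7L1, a paralogue of RPL7, was called in 1 knockdown library (388 nt, replicate 3) and in all scrambled libraries (61, 120 and 388 nt). In replicate 2 the class had calls of 3 genes in the knockdown and 3 in the scrambled library. Most named proteins of the cytosolic ribosome, among them RPL5, RPL11, RPS6 and RPS3, had no peak in any list. Among ribosomal protein genes outside the symbol rule, FAU had a peak of 87 nt in knockdown replicate 3, and RPLP0, RPLP1, RPLP2 and RPSA had none.

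**Figure D2:**
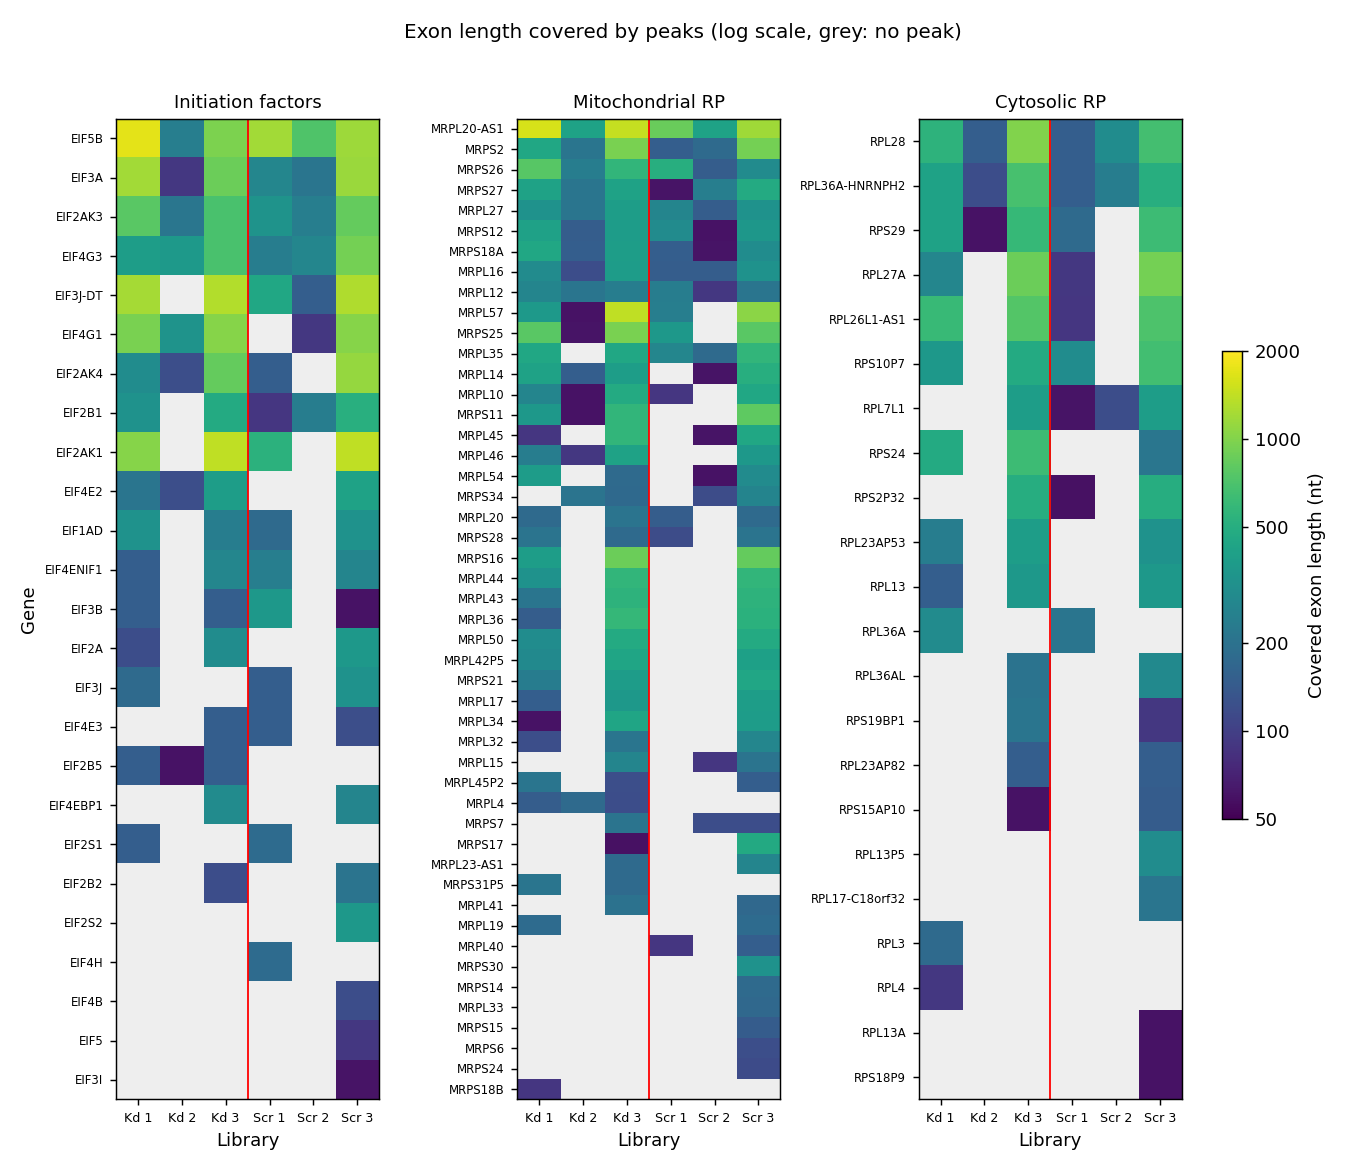
Exon length covered by peaks, in nt on a log colour scale, for each member (rows, ordered by the number of libraries called) in the 3 knockdown (left of the red line) and 3 scrambled libraries; grey marks no peak. Calls thin out in replicate 2 of each group, and 14 of the 18 members called once are in scrambled replicate 3.

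The central comparison asked whether members were called more often after knockdown of the demethylase. The knockdown libraries called 64, 28 and 72 members and the scrambled libraries 40, 26 and 86. The knockdown was higher in replicate 1, nearly level in replicate 2 and lower in replicate 3. The mean was 54.7 ± 23.4 in the knockdown and 50.7 ± 31.4 in the scrambled libraries (SD, n = 3 each), so the difference of 4 genes was far smaller than the spread between libraries. Within same-numbered pairs the differences were 24, 2 and -14 (SD 19.1), also a wider spread than 4 genes. Over all genes the differences within pairs were 1257, 68 and -163. Initiation factor genes numbered 17, 8 and 18 in the knockdown and 15, 7 and 22 in the scrambled libraries. Cytosolic ribosomal protein genes numbered 12, 3 and 15 in the knockdown and 9, 3 and 19 in the scrambled libraries. Mitochondrial ribosomal protein genes numbered 35, 17 and 39 in the knockdown and 16, 16 and 45 in the scrambled libraries, which makes a ratio of 2.19 in replicate 1, against 1.18 for all genes. Leaving out libraries turned the sign of the difference over all members, which was -0.667 without knockdown replicate 1, -4.67 without knockdown replicate 3, -1.33 without scrambled replicate 1 and -8.33 without scrambled replicate 2. It was 17.3 without knockdown replicate 2 and 21.7 without scrambled replicate 3.

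**Figure D3:**
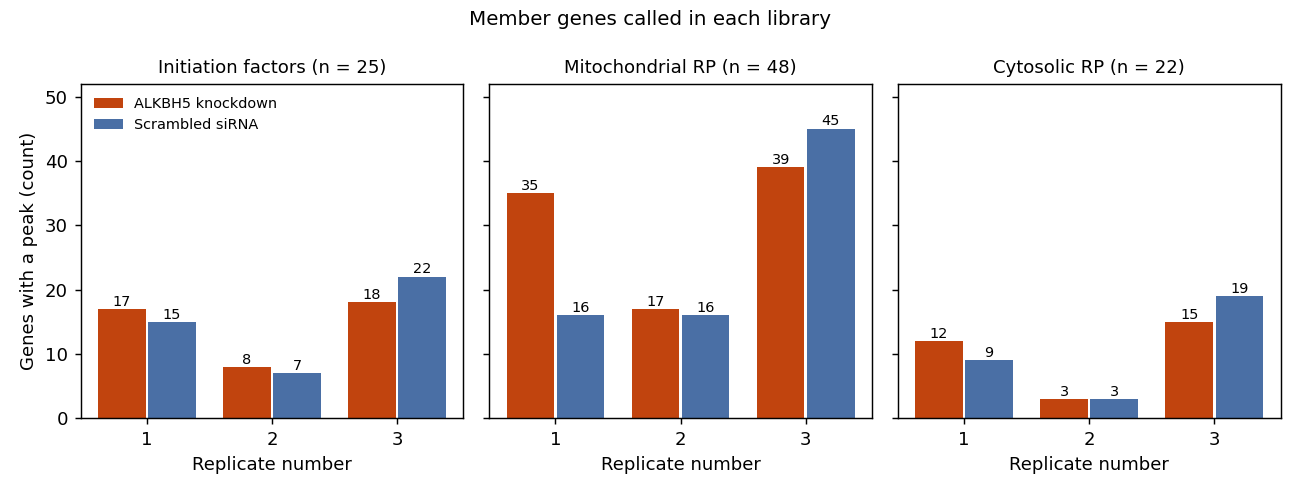
Number of member genes with a peak in each library, by class, with the knockdown library left of the scrambled library of the same replicate number. The mitochondrial class shows 35 against 16 genes in replicate 1 and 39 against 45 in replicate 3.

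Within same-numbered pairs, the members' calls changed in opposite directions in replicates 1 and 3. In replicate 1, 29 of the 69 members called in either list were in the knockdown list only (42%, where 20.3% of all genes were) and 5 in the scrambled list only (7.25%, where 5.99% of all genes were). In replicate 2 the counts were 10 and 8 of 36 (27.8% and 22.2%, over all genes 20.3% and 18.7%). In replicate 3 they were 3 and 17 of 89 (3.37% and 19.1%, over all genes 6.65% and 8.29%). The mitochondrial class gave 20 and 1 of 36 in replicate 1, 6 and 5 of 22 in replicate 2, and 2 and 8 of 47 in replicate 3. Initiation factors gave 4 and 2 of 19, 3 and 2 of 10, and 1 and 5 of 23. Cytosolic ribosomal protein genes gave 5 and 2 of 14, 1 and 1 of 4, and 0 and 4 of 19.

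**Figure D4:**
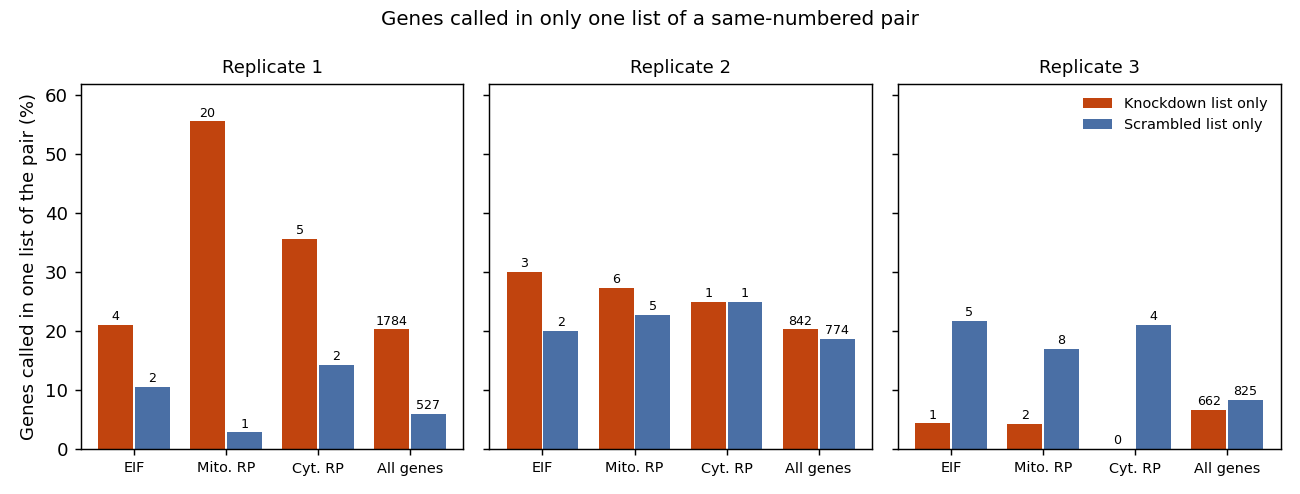
Percent of the genes called in either list of a same-numbered pair that were in the knockdown list only or in the scrambled list only, for each class and all genes; numbers above the bars are genes. The mitochondrial class reaches 55.6% for the knockdown list only in replicate 1, where all genes give 20.3%.

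The 20 mitochondrial ribosomal protein genes found only in the knockdown list of replicate 1 were mostly called elsewhere in scrambled cells. Of the 20, 17 were also called in scrambled replicate 3, in each case in a region that knockdown replicate 1 called too. Over all genes found only in the knockdown list of replicate 1, 77.9% were called in scrambled replicate 3 (1389 of 1784). For MRPS16, scrambled replicate 1 did cover 270 nt in 1 of its regions, under the number of DNAJC9. The 20 comprised MRPL4, MRPL14, MRPL17, MRPL19, MRPL32, MRPL34, MRPL36, MRPL43, MRPL44, MRPL45, MRPL46, MRPL50 and MRPL54, MRPS11, MRPS16, MRPS18B and MRPS21, and the transcribed pseudogenes MRPL42P5, MRPL45P2 and MRPS31P5. Their peaks covered a median of 211 nt (60 to 419 nt), with a median best percentile of 29.6, against 412 nt and 73.5 for the 15 called in both lists of replicate 1. With the knockdown list of replicate 1 shortened by score to the 15139 peaks of its control, the class had 30 genes in the knockdown and 16 in the scrambled list, where all genes numbered 7706 and 7010. In the best-scored 50% of each list it had 17 against 6, and all genes 5530 against 4660. The part of depth in this difference was not tested, since the lists hold no counts.

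By the number of libraries called, 31 members were called in more knockdown than scrambled libraries (32.6%, where 26.1% of all genes were) and 25 in fewer (26.3%, where 17.1% of all genes were), and 39 were level. The mitochondrial class had 20 with more and 10 with fewer of 48. Without both libraries of replicate 1 it had 7 with more and 13 with fewer, all members had 11 and 25, and all genes 1468 and 1572 (13.9% and 14.9%), so the balance turned in each of these sets. Without both of replicate 2 the mitochondrial class had 19 and 7, all members 28 and 20, and all genes 2156 and 1156 (20.5% and 11%). Without both of replicate 3 these were 21 and 4, 32 and 10, and 2394 and 1191 (22.7% and 11.3%). In these 2 settings the balance kept its direction. With all libraries, initiation factors had 5 with more and 9 with fewer of 25, and cytosolic ribosomal protein genes 6 and 6 of 22. A difference of at least 2 libraries was found for 6 members with more calls in the knockdown (3.02% of all genes met this), namely EIF2B5, MRPL4, EIF4E2, MRPL46, MRPS11 and MRPS31P5. It was found for 2 with fewer (1.04% of all genes), RPL7L1 and MRPL40. MRPL46, of the large mitochondrial subunit, had 240, 91 and 420 nt in the knockdown and 0, 0 and 360 nt in the scrambled libraries, at chromosome 15, 89002708 to 89003127. MRPS11, a close neighbour of MRPL46 on the other strand, had 360, 60 and 569 nt in the knockdown and 0, 0 and 806 nt in the scrambled libraries. MRPL40 had 0, 0 and 0 nt in the knockdown and 90, 0 and 150 nt in the scrambled libraries.

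Covered length gave the only graded comparison of single genes. EIF2B5 and MRPL4 were the 2 members whose knockdown values all lay above every scrambled value (0.285% of all genes met this), and both reached an exact permutation p of 0.1, the smallest that 3 against 3 allows. Adjusted over all 10536 genes by the Benjamini-Hochberg method, the p was 1. No member had all knockdown values below every scrambled value (0.0285% of all genes). By the protocol the replicate number marks RNA type and antibody, so the values were also compared within pairs. With this pairing, 13 members had a longer covered length in the knockdown of every pair (13.7%, where 13% of all genes did) and none a shorter one in every pair (1.42% of all genes). The share of members was close to that of all genes. Of the 13, 12 were of the mitochondrial class (MRPL4, MRPL10, MRPL12, MRPL20-AS1, MRPL27, MRPL46, MRPL57, MRPS2, MRPS12, MRPS18A, MRPS25 and MRPS26) and the other was EIF2B5. A gene can meet this rule only if every knockdown library called it. Among such genes it was met by 12 of 16 in the mitochondrial class, 1 of 8 initiation factors and 0 of 3 cytosolic ribosomal protein genes, and by 1369 of 3306 over all genes (41.4%). These genes were taken through the knockdown lists alone, and no like set was taken through the scrambled lists. The shares among them therefore cannot show a direction or a difference between classes. Adding over members, the covered length was 25211, 4650 and 34946 nt in the knockdown and 10007, 4774 and 37538 nt in the scrambled libraries. The ratio in replicate 1 was 2.52, against 1.57 over all genes.

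No region of a member was called in all 3 knockdown and no scrambled library (0.129% of all regions were) or the reverse (0.00923% of all regions).

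Other genes of the translation pathway were counted in the same way, beside 26.1% of all genes with more and 17.1% with fewer knockdown libraries; with 4 to 10 called genes a list, no difference from these shares was tested. Of 14 elongation and termination factors 10 had a peak, with 2 in more knockdown libraries (EEF2K and ETF1), 1 in fewer (EEF2) and 7 level. EEF2K, the kinase that inhibits the elongation factor EEF2, had 150, 0 and 211 nt in knockdown and 0, 0 and 241 nt in scrambled libraries. Of 18 genes of translation control 10 had a peak, with MTOR and PPP1R15A in more knockdown libraries and PDCD4 in fewer. PPP1R15A (GADD34), which brings a phosphatase to eIF2, had 896, 180 and 1163 nt in the knockdown and 60, 0 and 716 nt in the scrambled libraries, higher in the knockdown of each pair. Of 16 ribosome assembly genes 10 had a peak, 1 in more knockdown libraries (NOP2) and 4 in fewer, of which WDR12, UTP20 and HEATR1 had a peak of 61 nt in scrambled replicate 3 only. Of 8 mitochondrial translation factors 4 had a peak, with MTRF1 in more knockdown libraries and none in fewer.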

How the data were processed

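Peak lists of 6 immunoprecipitated libraries were analysed; the 6 inputs were not used here. Per the submitters' processing notes, CASAVA 1.8.2, TopHat2, SAMtools and the hg19 genome were used; the sources used here give neither their roles nor the peak caller, its threshold or any use of input. There is 1 list per library. The deposited score column was read as a p-value because its values run from 0 to 0.011; the header calls it a score and nothing more. It served to rank and filter peaks within a list. A stricter threshold or lower depth shortens a list, and depth is unknown, so no interval for it could be given.

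Covered length was the summed exon blocks of a gene's peaks. Regions joined peaks of all lists with at least 1 shared bp on the same strand (21675 regions). Coordinates are those of the lists, counted from 1. Gene numbers were named through the RefSeq table of GRCh38.p14, used for names, gene types and genomic lengths only (10500 of 10536 matched); protein lengths, planned for the length classes, were replaced by genomic lengths. Single genes were compared by a two-sided exact permutation test in Python 3.11.15 with NumPy 2.4.6. Its code was run on simulated data with 200 genes set apart by construction, which does not show how the test behaves on lists like these. No test was made over the members. Members, classes, lists and the rule for named genes were chosen with earlier results of these data known. That rule took members called throughout 1 condition and never in the other, the best-ranked members called everywhere, those differing by at least 2 libraries, those without overlap in covered length, those with the most peaks per class, the 12 most often called cytosolic members, and members of a role group under description. Other members are named where a count of theirs is given.

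Libraries with the same replicate number were treated as pairs, since the protocol ties the number to RNA type and antibody. The correlation across genes of their deviations from the group mean was positive (0.26, 0.41 and 0.37 in replicates 1, 2 and 3). Replicate 2 had the shortest list in both groups, and the part of list size in these correlations was not tested. Alternatives shortened the lists by score, left out libraries or pairs, asked for 2 peaks or for peaks of 1 gene, changed the members, or joined regions at 50% overlap. Some genes of the comparison lists are not reported here.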

Additional observations from a re-analysis of the deposited data

Results flagged for a closer look

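The number of genes called moved in opposite directions in replicates 1 and 3. By the protocol these shared the RNA type but not the antibody, while a separate label lists the replicate 1 antibody for every library. For mitochondrial ribosomal protein genes the difference, knockdown minus scrambled, was 19 in replicate 1 and -6 in replicate 3. For initiation factor genes it was 2 and -4, and for cytosolic ribosomal protein genes 3 and -4. Each replicate number holds 1 pair, so the difference between replicates was not tested. Over all genes the values were 1257 and -163.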

How the results depend on the processing

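The lists bound what can be seen: depth is unknown, replicate 2 had the shortest lists, and 3 libraries per condition cannot give p under 0.1. The cause of each change below was not tested, and the values for the mitochondrial class alone were added after seeing the data. Shares over all genes stand beside the counts of more and fewer calls only where both libraries of replicate 1 were left out. Those for the other pairs left out are given in the Results. The remaining counts below describe the members alone and give no contrast with all genes. With libraries left out, any gene can more easily lie above or below every scrambled value. Counts of covered length above and below therefore cannot show a direction particular to the members. In the best-scored 50% of each list, 0 members were called in all knockdown and no scrambled libraries, 20 in more and 12 in fewer knockdown libraries (mitochondrial class 13 and 5). With all lists at the size of the shortest these were 0, 21 and 11 (mitochondrial class 11 and 3), and with at least 2 peaks for a call 0, 15 and 9. Without both libraries of replicate 1, 11 members were called in more (11.6%, all genes 13.9%) and 25 in fewer (26.3%, all genes 14.9%). The mitochondrial class had 7 and 13. Without both of replicate 2, 1 was called in all scrambled and no knockdown libraries, and covered length lay above every scrambled value for 8 and below for 1. Without both of replicate 3 these were 1, 10 and 1, with 5 in all knockdown and no scrambled libraries and 10 in fewer.

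Leaving out 1 library at a time gave 2 to 5 members called in all knockdown and no scrambled libraries (5 without scrambled replicate 3) and 0 to 1 for the reverse. It gave 29 to 54 called in more and 13 to 46 in fewer knockdown libraries, covered length above all scrambled values for 2 to 10 and below for 0 to 1, and 4 to 18 mitochondrial genes in fewer (20 to 29 in more). The difference in members called ran from -8.33 to 21.7, and in mitochondrial genes from -0.167 to 14.3. With the replicate number as a block, the difference in members called was 4 and the covered length was longer in every pair for 13 members. The count of regions called throughout 1 condition and never in the other was 0 also when peaks were joined at 50% overlap. Covered length has no call minimum, so the 2-peak rule was not run on it.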

Other observations

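Transcripts that carry ribosomal protein names without coding for the protein also had peaks. Of 33 transcribed pseudogenes that fit the symbol rule 10 had a peak, and of 2053 other pseudogenes none had, which does not say whether the authors' gene models held them. RPS10P7 on chromosome 1 had 360, 0 and 480 nt in knockdown and 300, 0 and 659 nt in scrambled libraries. RPL23AP53 had 240, 0 and 389 nt in knockdown and 0, 0 and 330 nt in scrambled libraries. RPS2P32 had 0, 0 and 498 nt in knockdown and 59, 0 and 499 nt in scrambled libraries. None of the 10 was called in replicate 2, whose lists were the shortest and held 32% of all genes in the knockdown and 31.4% in the scrambled library. Of 18 long noncoding RNAs with such symbols 4 had a peak. RPL26L1-AS1 had 599, 0 and 747 nt in knockdown and 90, 0 and 718 nt in scrambled libraries. EIF3J-DT had 1225, 0 and 1314 nt in knockdown and 449, 151 and 1284 nt in scrambled libraries, so that it was called in 2 knockdown and 3 scrambled libraries. How far reads of the parent genes could be placed on a pseudogene was not tested.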
